A study of Mus musculus with 6 samples.

Results

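The transcripts described here are those of the matrix metalloproteases (MMPs), the ADAM and ADAMTS proteases, the ADAMTS-like proteins and the tissue inhibitors of metalloproteases (TIMPs). They were taken by gene symbol (Mmp, Adam, Adamts, Adamtsl or Timp followed by a number) from the table of raw fragment counts, which gave 84 of its 51499 assembled loci: 23 Mmp, 33 Adam, 19 Adamts, 5 Adamtsl and 4 Timp loci. RNA sequencing was performed on mouse embryonic fibroblasts (MEFs) of 2 genotypes, WT and Yme1l-/-, in 3 independent cultures of each. All cultures were SV40-immortalized and derived from animals with floxed Yme1l, the gene for YME1L, a protease in the inner membrane of mitochondria. They were clonal lines grown up after exposure to Cre, in which the alleles were either still floxed (WT, genotype Yme1l fl/fl) or deleted (Yme1l-/-). The labels do not say how many clones the cultures represent, so that the effect of the genotype and a difference between clones cannot be told apart, and p-values measure the spread between cultures.

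MMPs, ADAMs and ADAMTS proteins are zinc-dependent endopeptidases that act at or outside the cell surface. Secreted MMPs cleave collagens and other matrix proteins, membrane-anchored MMPs act at the cell edge and can activate secreted MMPs, most ADAMs with a working catalytic site release the ectodomains of membrane proteins such as growth factor precursors, and ADAMTS proteases process procollagen or cleave the large proteoglycans aggrecan and versican. TIMPs bind the active site of these proteases, and fibroblasts are a main source of both sides of this balance.

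Libraries held between 33180867 and 49351107 counted fragments, and the 84 loci took between 0.260% and 0.270% of a library. Yme1l1, the symbol of Yme1l in the table, fell to 20.7% of its WT level, in the direction of the labels. Of 11 fibroblast markers, 7 were lower and 1 was higher in Yme1l-/-, and their summed level went from between 10963 and 11520 CPM (fragments per 1e+06 of the scaled library size) in WT libraries to between 6724 and 7207 CPM in Yme1l-/- libraries. Thy1 and Lum, also on that list, were near 0 in both genotypes. The summed level of 8 epithelial markers, mostly Krt18, was 33.3 to 35.3 CPM in WT and 0.373 to 0.686 CPM in Yme1l-/- libraries. Lists for endothelial (7 markers), haematopoietic (8), neural (6) and muscle (5) cells summed to at most 8.11 CPM in any library, with 5 markers called higher (Kdr, Cd68, Cd14, Des and Tnnt2) and 1 called lower (Mrc1). Tubb3, also on the neural list, was not found by symbol and is not in the sum. Tie1, Emcn, Adgre1, Nefl, Olig2 and Myog had no fragment. The part of these marker differences in the results was not tested, and in bulk RNA a smaller share of cells that express a gene and less RNA per cell cannot be told apart.

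Among the 84 loci, 27 had no fragment in any library, 14 had fragments but too few for a test, and 43 were tested. In Yme1l-/-, 18 of the tested members were higher and 19 were lower at an adjusted p under 0.05 (33.6% and 34.1% of all 13867 tested loci), together 86.0% of the 43 where 67.7% of all loci were called. At least 2-fold differences were called for 22 members (51.2%, against 17.7% of all loci), 11 of them higher and 11 lower (9.1% and 8.63% of all loci). The median of the members' log2 fold changes was -0.05, beside -0.00 over all tested loci, and the median of their absolute values was 1.08, beside 0.38. Since a gene silent in a single genotype passes the filter only through the other, the counts were also taken with at least 10 fragments required in every library: 28 of 33 members were then called (84.8%, against 68.1% of all loci), 13 of them with at least 2-fold change (39.4%, against 12.7%). Among the 43 tested members, the 37 called were also those whose libraries did not overlap between genotypes, which held for 71.9% of all tested loci.

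**Figure D1:**
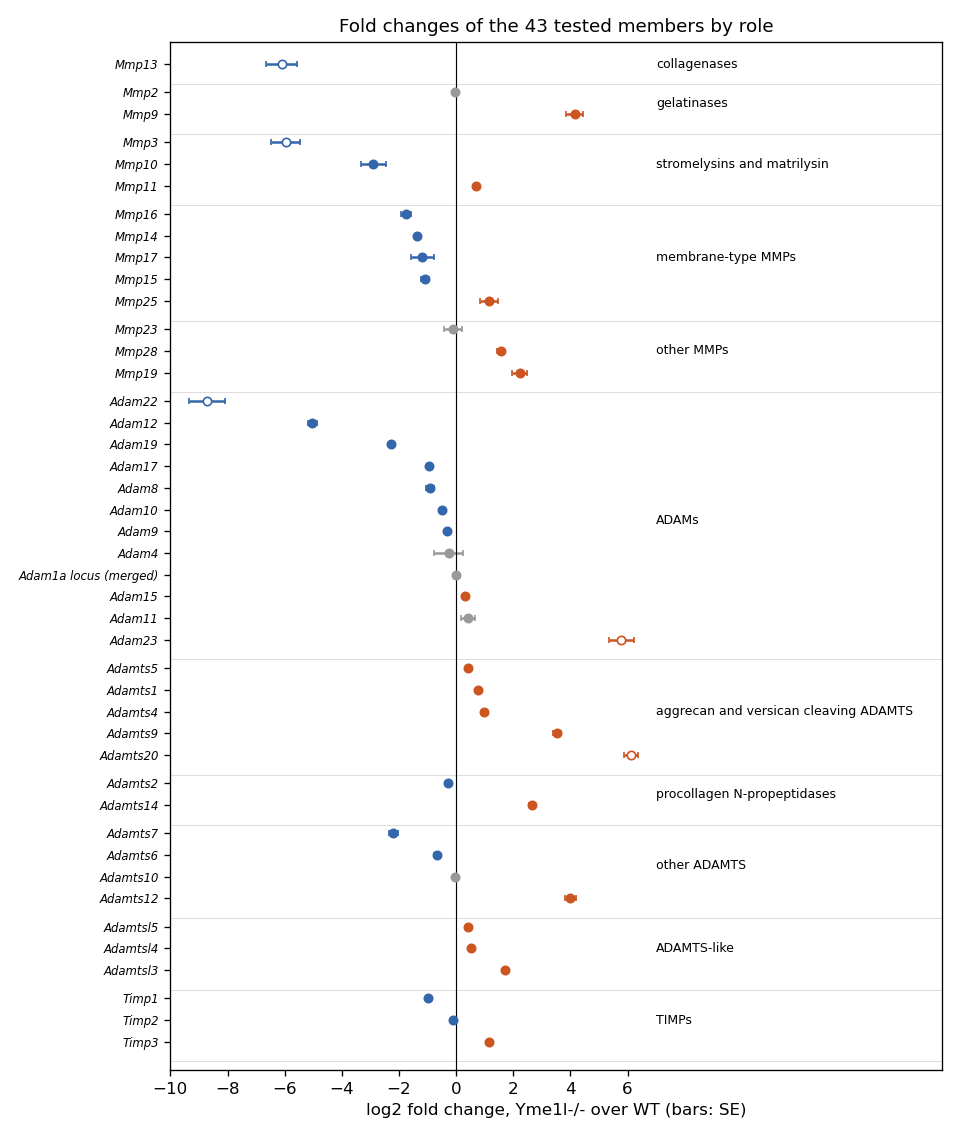
Log2 fold change (Yme1l-/- over WT, x axis) with its SE for each of the 43 tested members, grouped by role. Orange marks members called higher, blue members called lower and grey members not called, and open circles mark 5 members with at most 3 fragments in every library of a genotype, whose fitted value depends on the prior count. All 5 tested aggrecan- and versican-cleaving ADAMTS genes and all 3 ADAMTS-like genes lie right of 0, and 4 of 5 membrane-type MMPs lie left of it. Of all tested loci, 33.6% were called higher and 34.1% lower.

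On chromosome 9, 10 MMP genes form a cluster, of which Mmp13, Mmp3 and Mmp10 had fragments. These genes were lower in Yme1l-/-, as were 34.1% of all tested loci, and they passed the filter on low counts only through WT. Mmp13 encodes a collagenase, and Mmp3 and Mmp10 encode stromelysins, which cleave many matrix proteins and activate other pro-MMPs. Stretches of DNA just upstream of their start sites are shown because transcription of these genes is known to depend on the AP-1 complex of FOS and JUN proteins. They are the 150 bases before a RefSeq start of each gene (GRCm38, the assembly of mm10, plus strand), in lower case with each match to the AP-1 motif TGANTCA in capitals. Mmp1a, a gene of the cluster without fragments that GENCODE annotates as a polymorphic pseudogene, and Adam19, a member outside it that holds the motif, are shown beside them. Adam19 has 3 RefSeq starts, and only the upstream stretch of the start shown holds the motif.
Mmp13 (chr9:7272364-7272513): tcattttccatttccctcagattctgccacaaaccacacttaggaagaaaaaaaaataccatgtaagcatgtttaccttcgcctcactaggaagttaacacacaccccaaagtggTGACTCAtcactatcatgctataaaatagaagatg
Mmp3 (chr9:7445672-7445821): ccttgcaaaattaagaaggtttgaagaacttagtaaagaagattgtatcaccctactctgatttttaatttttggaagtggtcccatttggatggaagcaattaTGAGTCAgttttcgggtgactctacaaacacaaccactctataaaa
Mmp10 (chr9:7502192-7502341): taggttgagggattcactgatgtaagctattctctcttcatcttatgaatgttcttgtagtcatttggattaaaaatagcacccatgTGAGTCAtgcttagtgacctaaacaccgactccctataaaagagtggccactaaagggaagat
Mmp1a (chr9:7463991-7464140): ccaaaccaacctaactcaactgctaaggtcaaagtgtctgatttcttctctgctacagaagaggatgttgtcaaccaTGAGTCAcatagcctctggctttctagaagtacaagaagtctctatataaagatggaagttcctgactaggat
Adam19 (chr11:46055834-46055983): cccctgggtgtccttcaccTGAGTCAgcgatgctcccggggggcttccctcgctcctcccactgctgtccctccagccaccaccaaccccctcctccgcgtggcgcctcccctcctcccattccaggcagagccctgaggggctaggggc

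The motif began 35 bases before the start in Mmp13, 46 in Mmp3, 63 in Mmp10, 73 in Mmp1a and 131 in Adam19. In the 250 bases before each start, it was found in 8 of the 10 genes of the cluster and in 4 of 43 other members with an entry, and in 7.82% of all 27025 genes with a RefSeq promoter entry. No match lay in the promoters of the 14 higher members with an entry, and 4 of 13 lower members held one, 3 of them in the cluster. The TATA box, TATAAA on either strand, was held by 7 of the 10 cluster genes and by 14.3% of all genes. The ETS motif AGGAAG, also on either strand, was held by 6 of these 10 genes and by 32.3% of all genes. Promoter entries were matched for 53 of the 84 members and for 29 of the 43 tested. A match in these letters is a description and does not show binding.

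Mmp13 (chromosome 9, 7272514 to 7283331) was read with 32, 56 and 33 fragments in WT cultures and with 0, 1 and 1 in Yme1l-/- cultures. The ratio of summed counts at equal depth was 83.8-fold in favour of WT (95% exact interval of counting error 22.7 to 699.6), with an adjusted p of 1.9e-06. Mmp3 (7445822 to 7455975) had 42, 78 and 79 fragments in WT and 0, 3 and 1 in Yme1l-/-, a ratio of 68.9 (26.5 to 255.3) with an adjusted p of 1.3e-06. For Mmp10 (7502352 to 7510240) the counts were 19, 20 and 17 against 4, 4 and 2, and the log2 fold change was -2.89 ± 0.42 (SE, adjusted p 9.5e-05). All 3 genes were sparsely transcribed even in WT, at 1.21 FPKM or less (fragments per kilobase of transcript and 1e+06 fragments, the authors' combined value per genotype). The other 7 genes of the cluster, Mmp1a, Mmp1b, Mmp7, Mmp8, Mmp12, Mmp20 and Mmp27, had no fragment in any library. The 10 genes span 427.1 kb.

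Smaller differences were measured for the closest loci on either side. The log2 fold change of Dcun1d5, the closest tested gene on the Mmp13 side, was -0.53 ± 0.09, and that of Tmem123, the closest on the Mmp7 side, was -0.05 ± 0.06 (SE). Birc2, beyond Tmem123, was higher in Yme1l-/- (0.44 ± 0.06, SE). Farther out, Pdgfd, which encodes a platelet-derived growth factor, went from 27.5 to 0.00661 CPM. The 785 tested loci of chromosome 9 had a median of -0.36. Adam10 and Adamts7 were the other tested members on this chromosome, and both were lower.

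**Figure D2:**
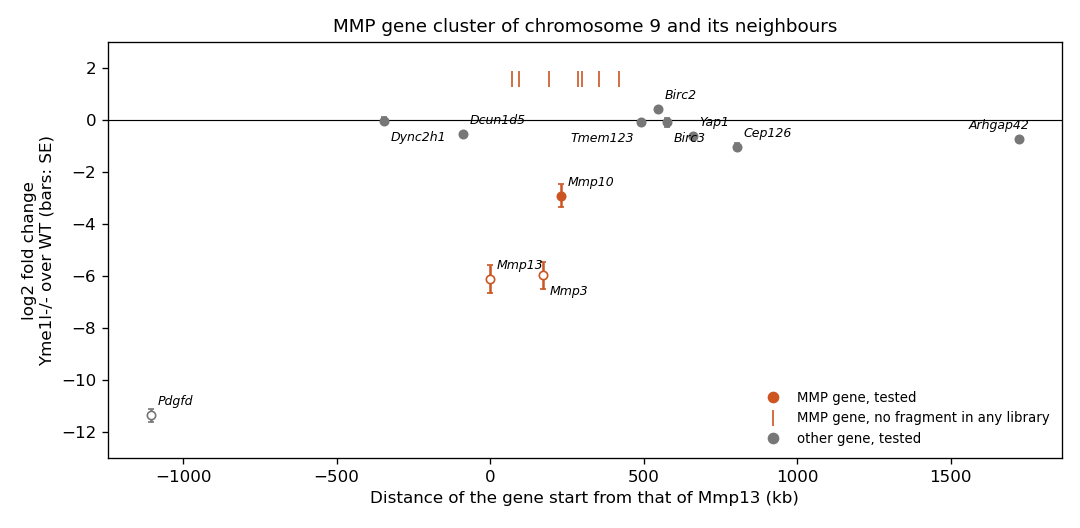
Log2 fold change (Yme1l-/- over WT) with SE of the tested protein-coding genes of the chromosome 9 MMP cluster and within 1500 kb of it, against the distance of their gene start from that of Mmp13. Orange marks MMP genes, grey other genes, 7 orange ticks (set at a fixed height) MMP genes with no fragment, and open circles genes with at most 3 fragments in every library of a genotype. Mmp13, Mmp3 and Mmp10 lie lower than the genes closest to the cluster on either side, and Pdgfd lies lowest.

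Membrane-type MMPs are tethered to the cell surface, where Mmp14 is known as the main activator of pro-MMP2 and as a collagenase of the cell edge. Mmp14 (chromosome 14, 54431612 to 54445364) had 496.0, 484.3 and 481.8 CPM in WT and 194.0, 190.3 and 181.0 CPM in Yme1l-/-. The genotypes did not overlap. Means were 487.3 ± 7.56 and 188.4 ± 6.70 CPM (SD, n = 3), and the log2 fold change of Mmp14 was -1.37 ± 0.04 (SE, adjusted p 4.3e-10). Mmp14 was also the most abundant protease of the set per transcript length, with 202.1 FPKM in WT and 78.3 FPKM in Yme1l-/- as combined by the authors. Most of the summed MMP level came from it, and this sum went from 577.8 ± 6.23 to 307.0 ± 3.73 CPM (SD, n = 3).

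Mmp15 and Mmp16, further membrane-type proteases that can activate pro-MMP2, were lower as well, as were 34.1% of all tested loci. In the WT libraries Mmp16 (chromosome 4) had 8.28, 8.55 and 10.4 CPM, and in the Yme1l-/- libraries 2.31, 2.18 and 3.55 CPM, a log2 fold change of -1.75 ± 0.18 (SE, adjusted p 7.5e-06). Mmp15 (chromosome 8) had 6.28, 5.01 and 4.81 CPM in WT and 2.63, 2.46 and 2.53 CPM in Yme1l-/-, a log2 fold change of -1.08 ± 0.14 (SE, adjusted p 3.2e-05). With the median of chromosome 8 subtracted, Mmp15 was at -0.77. The glycolipid-anchored members went in opposite directions at low levels. Mmp17 had 20 to 23 fragments in WT and 8 to 18 in Yme1l-/- (-1.18 ± 0.40, SE), and its call was lost without WT replicate 1 (-1.13) and without Yme1l-/- replicate 2 (-0.85) or 3 (-1.03). Mmp25 had 7 to 10 fragments in WT and 16 to 35 in Yme1l-/- (1.15 ± 0.33, SE). Neither Mmp17 nor Mmp25 reached 10 fragments in every library. Mmp24 had 6 to 13 fragments per library and was not tested.

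The gelatinases, which digest denatured collagen and basement membrane collagen, differed from each other. Mmp2 had 29.9, 34.0 and 31.8 CPM in WT and 30.8, 31.3 and 30.0 CPM in Yme1l-/-. These libraries overlapped, and the log2 fold change of -0.05 ± 0.06 (SE, adjusted p 0.44) was not a call. Its sign turned with upper-quartile scaling (0.00) and with the median of its chromosome removed (0.26, a call at an adjusted p of 0.0029), chromosome 8 having a median of -0.32. Mmp9 had 5, 12 and 3 fragments in WT and 136, 172 and 185 in Yme1l-/-, 0.203 ± 0.145 against 3.64 ± 0.238 CPM (SD, n = 3). Every Yme1l-/- library was above every WT library, and the log2 fold change was 4.14 ± 0.30 (SE, adjusted p 3.5e-07), though Mmp9 passed the filter on low counts only through Yme1l-/-. This value was 4.86 without WT replicate 2 and 3.80 without WT replicate 3. Per transcript length Mmp9 remained far under Mmp2 in Yme1l-/-, at 1.18 and 10.3 FPKM.

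Among the remaining MMPs, Mmp19, Mmp28 and Mmp11 were higher. Mmp19, a secreted MMP of basement membrane and matrix glycoprotein turnover, had 2.21, 4.92 and 3.37 CPM in WT and 14.3, 15.5 and 19.0 CPM in Yme1l-/- (log2 fold change 2.22 ± 0.26, SE, adjusted p 0.00018). Mmp28, also called epilysin, went from 4.14, 4.22 and 3.09 CPM to 10.9, 11.6 and 11.2 CPM (1.56 ± 0.12, SE, adjusted p 6.2e-07). Mmp11, the stromelysin that is activated by furin inside the cell, was the second of the MMPs by FPKM in WT, and rose by 0.68 ± 0.05 (log2 fold change ± SE). With the median of chromosome 10 (0.30) subtracted, Mmp11 was at 0.38. For Mmp23 the log2 fold change was -0.11 ± 0.33 (SE) and was not called. Mmp21 had no fragment.

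**Figure D3:**
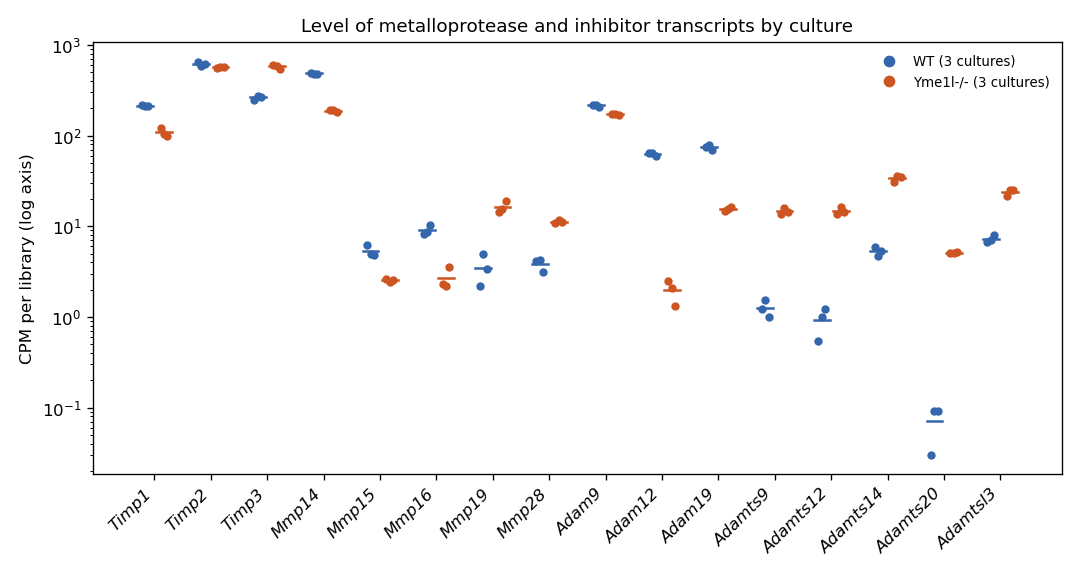
CPM in each culture (points, log axis) and mean of 3 cultures (bars) for 16 members in WT (blue) and Yme1l-/- (orange). Points of both genotypes are separate for all 16 members, by the least margin for Timp2, and Adam12 and Adamts20 show the widest gaps.

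ADAMs that act as sheddases of somatic cells were mostly lower. Of 7 such genes tested, Adam8, Adam9, Adam10, Adam12, Adam17 and Adam19 were lower and Adam15 was higher (34.1% and 33.6% of all tested loci). Adam12, a protease of mesenchymal cells with roles in cell fusion and growth factor release, had the largest fall among them. It had 65.0, 64.6 and 59.2 CPM in WT and 2.51, 2.08 and 1.32 CPM in Yme1l-/-, or 3.13% of WT (log2 fold change -5.03 ± 0.16, SE, adjusted p 1.1e-08, chromosome 7, 133883199 to 134232146). Adam19, its close relative, which sheds neuregulin, had 75.1, 79.6 and 70.2 CPM in WT and 14.9, 15.7 and 16.2 CPM in Yme1l-/- (-2.27 ± 0.06, SE, adjusted p 1.4e-10). Chromosomes 7 and 11, where these genes lie, had medians of -0.01 and 0.36.

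Adam17 and Adam10 are the main sheddases of TNF, EGF receptor ligands and Notch. Adam17 had 114.2, 117.2 and 114.0 CPM in WT and 59.7, 58.8 and 60.7 CPM in Yme1l-/-, 51.9% of the WT level (log2 fold change -0.95 ± 0.04, SE, adjusted p 7.4e-09). It lies on chromosome 12, whose median was -0.44, and it was at -0.51 with that median subtracted. Adam10 had 160.1, 167.9 and 162.5 CPM in WT and 118.6, 115.4 and 115.9 CPM in Yme1l-/-, a smaller difference of -0.49 ± 0.04 (SE) on a chromosome with a median of -0.36. Within libraries, where no scaling enters, there were 0.713, 0.698 and 0.701 Adam17 fragments per Adam10 fragment in WT and 0.503, 0.510 and 0.524 in Yme1l-/-.

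Adam9 had 217.0, 219.7 and 209.2 CPM in WT and 173.2, 175.5 and 169.9 CPM in Yme1l-/- (-0.32 ± 0.04, SE, adjusted p 3.2e-05). This difference equalled the median of chromosome 8, and with chromosome medians removed Adam9 was at -0.00053 and not called. Adam8, a sheddase best known from leukocytes, was at -0.92 ± 0.14 and Adam15 at 0.30 ± 0.05 (log2 fold change ± SE). The locus of Adam1a was merged with Mapkapk5 and Gm42878 by the authors, its counts cannot be divided among the genes, and it had 76.7, 72.6 and 69.9 CPM in WT and 78.5, 70.8 and 69.3 CPM in Yme1l-/- (-0.00 ± 0.06, SE, adjusted p 0.94).

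Members of the group of ADAMs that lack a working protease site and serve as receptors for LGI proteins or integrins included Adam22 and Adam23, each tested only because of its counts in a single genotype. Adam22 had 37, 51 and 45 fragments in WT and none in any Yme1l-/- library, at least 15.8-fold lower against a floor of 3 counts per library. Adam23 had 1, 0 and 3 fragments in WT and 80, 143 and 106 in Yme1l-/-. The ratio of summed counts for Adam23 was 59.4-fold in favour of Yme1l-/- (95% exact interval of counting error 22.98 to 219.3), with an adjusted p of 4.7e-07. Adam11, of the same group, was at 0.43 ± 0.24 (log2 fold change ± SE) and not called. ADAMs known from testis and sperm, such as Adam2, Adam3 and Adam18, made up most of the 16 Adam loci without a fragment. Adam4 was tested at 7 to 27 fragments per library and not called (adjusted p 0.66).

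Of 11 tested ADAMTS protease genes, 7 were called higher in Yme1l-/- and 3 lower (33.6% and 34.1% of all tested loci). Tested genes whose products cleave aggrecan or versican were Adamts1, Adamts4, Adamts5, Adamts9 and Adamts20, and each was higher, but Adamts20 passed the filter on low counts only through Yme1l-/-. Adamts9 (chromosome 6, 92772699 to 92943492) had 1.24, 1.53 and 1.01 CPM in WT and 13.5, 16.0 and 14.3 CPM in Yme1l-/-, a log2 fold change of 3.53 ± 0.14 (SE, adjusted p 3.0e-09). Adamts20, its closest relative, had 1, 3 and 3 fragments in WT and 178, 254 and 266 in Yme1l-/-. The ratio for Adamts20 was 72.0-fold (95% exact interval of counting error 34.8 to 179.8), with an adjusted p of 3.3e-09.

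Smaller rises were measured for the more abundant genes of this group. Adamts1 went from 70.3, 79.2 and 74.6 CPM to 123.2, 130.4 and 126.4 CPM (log2 fold change 0.76 ± 0.05, SE), and Adamts5 from 87.2, 78.2 and 91.7 CPM to 110.0, 118.6 and 118.0 CPM (0.43 ± 0.06, SE). Both genes lie next to each other on chromosome 16, 53.1 kb apart, and the median of that chromosome was -0.02. Adamts4, a main aggrecanase together with Adamts5, had 5.11, 5.93 and 5.11 CPM in WT and 10.9, 10.8 and 10.3 CPM in Yme1l-/- (0.99 ± 0.10, SE, adjusted p 4.0e-06). Adamts8 and Adamts15 had at most 3 fragments in any library and were not tested.

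Procollagen N-propeptidases, which trim fibrillar procollagens before they assemble into fibrils, moved apart. Adamts14 (chromosome 10, 61197112 to 61273438) had 5.98, 4.73 and 5.36 CPM in WT and 31.0, 35.5 and 34.6 CPM in Yme1l-/-, a log2 fold change of 2.65 ± 0.09 (SE, adjusted p 9.9e-10). By contrast, Adamts2 had 11.3, 11.4 and 14.1 CPM in WT and 10.3, 10.3 and 9.97 CPM in Yme1l-/- (-0.27 ± 0.10, SE, adjusted p 0.032). That call was lost without WT replicate 3 (-0.16), without Yme1l-/- replicate 2 (-0.28) or 3 (-0.25), and with upper-quartile scaling (-0.21), while relative to the median of its chromosome Adamts2 was at -0.63 (adjusted p 0.00023). Adamts3 had 5, 4 and 5 fragments in WT and 0 in each Yme1l-/- library, under the limit for a test.

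Of the other ADAMTS genes, Adamts12 was higher, Adamts6 and Adamts7 were lower, and Adamts10 did not pass the test. Adamts12 and Adamts7 encode proteases with a shared domain structure that cleave cartilage oligomeric matrix protein. Adamts12 (chromosome 15, 11064790 to 11349231) had 0.544, 1.01 and 1.23 CPM in WT and 13.8, 16.2 and 14.3 CPM in Yme1l-/- (log2 fold change 3.99 ± 0.20, SE, adjusted p 2.3e-08), on the chromosome with the highest median, 0.59. Adamts7, on chromosome 9, went from 4.47, 5.80 and 4.66 CPM to 1.11, 1.13 and 1.00 CPM (-2.20 ± 0.16, SE, adjusted p 3.5e-07). With the chromosome medians subtracted, Adamts12 was at 3.40 and Adamts7 at -1.84, so that they still lay on opposite sides of 0. Adamts6 was at -0.66 ± 0.10, and Adamts10, like Adamts6 a protease of fibrillin microfibrils, was at -0.05 ± 0.07 (log2 fold change ± SE). With chromosome medians removed, Adamts10 was called lower (-0.22, adjusted p 0.0142). Adamts13 and Adamts19 had no fragment, and Adamts16, Adamts17 and Adamts18 had at most 9 in any library.

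ADAMTS-like proteins resemble ADAMTS proteases in their ancillary domains but have no protease domain, and several bind fibrillin. All 3 tested genes were higher, as were 33.6% of all tested loci. Adamtsl3 had 6.65, 7.06 and 8.09 CPM in WT and 21.4, 25.2 and 25.0 CPM in Yme1l-/- (log2 fold change 1.72 ± 0.10, SE, adjusted p 3.8e-08). Adamtsl4 was at 0.51 ± 0.07 and Adamtsl5 at 0.40 ± 0.07 (SE), and the call for Adamtsl5 was lost with chromosome medians removed (0.10, adjusted p 0.199). Adamtsl1 had 1, 4 and 3 fragments in WT and 16, 17 and 13 in Yme1l-/-, too few for a test.

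The inhibitors changed in relation to each other. Timp3, which binds to the extracellular matrix and is known as the TIMP that inhibits ADAM17 and the aggrecanases, had 248.7, 277.0 and 270.2 CPM in WT and 606.0, 594.4 and 544.1 CPM in Yme1l-/-. This was a rise to 219% of the WT level (log2 fold change 1.13 ± 0.06, SE, adjusted p 1.9e-08). With the median of chromosome 10 (0.30) subtracted, Timp3 was at 0.83. Timp1, a secreted inhibitor of most soluble MMPs, had 219.3, 210.8 and 211.0 CPM in WT and 121.4, 105.0 and 99.1 CPM in Yme1l-/-, 50.8% of the WT level (-0.98 ± 0.07, SE, adjusted p 2.5e-07). With the median of chromosome X (-0.21) subtracted, Timp1 was at -0.77. Timp2, which also takes part in the activation of pro-MMP2 by MMP14, had 649.5, 590.9 and 623.4 CPM in WT and 563.4, 574.7 and 572.6 CPM in Yme1l-/-. The log2 fold change of Timp2 was -0.12 ± 0.05 (SE, adjusted p 0.045). Relative to the median of chromosome 11 (0.36), Timp2 was at -0.48 (adjusted p 4.0e-06). The other alternative fits gave adjusted p-values up to 0.264, and the call was lost in 8 of them, with upper-quartile scaling at -0.064. These included the fits without WT replicate 1 (-0.093) or 3 (-0.12) and without Yme1l-/- replicate 1 (-0.11), 2 (-0.13) or 3 (-0.12). Timp4 had no fragment.

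Ratios of fragments within a library, chosen after the values were seen, do not depend on scaling between libraries. There were 1.13, 1.31 and 1.28 Timp3 fragments per Timp1 fragment in WT and 4.99, 5.66 and 5.49 in Yme1l-/-, a 4.33-fold higher mean ratio. Mmp14 fragments per Timp2 fragment were 0.764, 0.820 and 0.773 in WT and 0.344, 0.331 and 0.316 in Yme1l-/-. For Adam17 over Timp3, the protease and the inhibitor known to act on it, the values were 0.459, 0.423 and 0.422 in WT and 0.0985, 0.0989 and 0.112 in Yme1l-/-. Adam10 fragments per Timp1 fragment went the other way, from 0.730, 0.796 and 0.770 in WT to 0.976, 1.10 and 1.17 in Yme1l-/-. The genotypes did not overlap in any of these ratios, for which an exact two-sided permutation test of 3 against 3 cultures cannot give a p under 0.1.

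Genes for TIMPs overlap synapsin genes on the opposite strand. Timp1 (chromosome X, 20870166 to 20874735) overlaps Syn1, and Timp3 (chromosome 10, 86300372 to 86349506) overlaps Syn3. Libraries were stranded, but whether counting used the strand is not stated in the sources used here. Syn1 had 21 to 49 fragments and Syn3 5 to 24 per library, against at least 4250 for Timp1 and 8231 for Timp3. Timp2 (chromosome 11, 118301069 to 118355740) shares its strand with the overlapping gene Cep295nl, which had 138 to 316 fragments per library.

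Per transcript length, the order of the members changed at the top. As combined by the authors, with no spread deposited, Timp1 led in WT with 309.8 FPKM, followed by Timp2 (202.3 FPKM), Mmp14 (202.1 FPKM), Timp3 (56.5 FPKM), Adam9 (55.3 FPKM) and Adam10 (39.1 FPKM), when the merged Adam1a locus is left out. In Yme1l-/- the order was Timp2 (198.6 FPKM), Timp1 (156.8 FPKM), Timp3 (125.1 FPKM), Mmp14 (78.3 FPKM) and Adam9 (44.5 FPKM). Timp2 and Mmp14 in WT, and Timp3 and Adam9 in WT, cannot be ordered on such close values without replicates. The sum over the TIMPs was 568.6 FPKM in WT and 480.5 FPKM in Yme1l-/-, whereas their summed CPM, which is not corrected for length, was 1100 ± 19.7 and 1260 ± 39.4 (SD, n = 3).

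**Figure D4:**
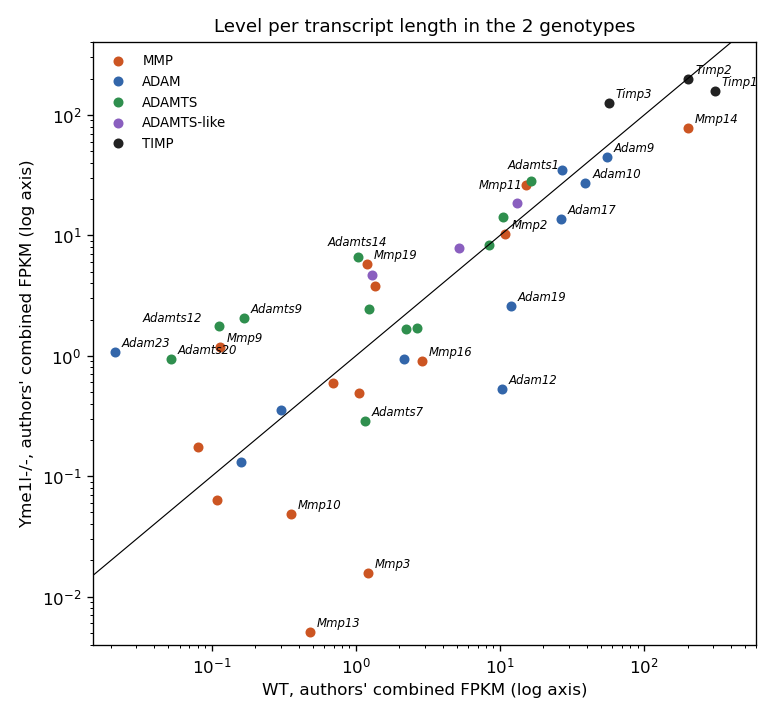
FPKM in WT (x axis) and Yme1l-/- (y axis), the authors' combined value per genotype on log axes, for the tested members with a value above 0 in both, without the merged Adam1a locus. The line marks equal values. Timp1, Timp2, Mmp14 and Timp3 are the most abundant, Adam12 and Adam19 lie far below the line, and Adamts9, Adamts12 and Adamts14 lie above it.

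Genes that activate, anchor or restrain these proteases were mostly lower. In a list of 35 partners of proteolysis at the cell surface, 28 loci were tested, 18 were lower and 5 were higher (82.1% called, against 67.7% of all loci, where 34.1% were called lower), with a median log2 fold change of -0.33. Of the 18, Pcsk5, Spock3, Tll1, Serpine2, St14 and the Serpinb2 locus had under 10 fragments in at least 1 Yme1l-/- library and passed the filter through WT. The loci of Pcsk6, Pcolce and Serpinb2 were merged with other genes, so their counts cannot be divided, and all 3 count among the 18. The 5 partners called higher were Tspan17 (1.41 ± 0.12), Rhbdf2 (0.67 ± 0.07), Tspan15 (0.53 ± 0.07), Bsg (0.34 ± 0.06) and Plat (0.17 ± 0.07, log2 fold change ± SE). Plau, which encodes urokinase, the activator of plasminogen and through it of pro-MMPs, had 1275, 1281 and 1263 fragments in WT and 612, 924 and 937 in the partly deeper Yme1l-/- libraries (log2 fold change -1.10 ± 0.05, SE, adjusted p 1.2e-08). Lrp1, the endocytic receptor that clears MMPs, ADAMTS proteases and TIMPs, was at -0.33 ± 0.12 (log2 fold change ± SE, adjusted p 0.048). Reck, a membrane-anchored inhibitor of MMPs, was at 0.13 ± 0.10 (SE, adjusted p 0.284) and not called.

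Several partners with wide gaps had few or no fragments in Yme1l-/-. Tll1, a relative of the procollagen C-proteinase Bmp1, had 1229, 1136 and 1212 fragments in WT and 5, 9 and 5 in Yme1l-/- (log2 fold change -7.99 ± 0.13, SE). Pcolce2, an enhancer of that proteinase, was at -2.35 ± 0.10 (SE). The proprotein convertase Pcsk5 and the proteoglycan Spock3 had no fragment in any Yme1l-/- library, at least 35.3-fold and 55.7-fold lower, although Spock3 varied between 83 and 283 fragments in WT. The transmembrane serine protease gene St14 (-4.05 ± 0.52), Serpine2 (-1.61 ± 0.42) and the locus of Serpinb2, merged with Serpinb10 (-5.67 ± 0.33, log2 fold change ± SE), were lower too, with 14 to 126 fragments per WT library.

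In a second list, of 21 AP-1, ETS and RUNX factors known to act on metalloprotease promoters, 19 loci were tested. Of these, 15 were lower and 2 were higher (34.1% and 33.6% of all tested loci), with a median of -0.38. Together 89.5% were called, against 67.7% of all loci. The loci of Elk1 and Elk4, merged with Uxt and Slc45a3, count among the 15. With 10 fragments required in every library, 34 of 41 tested genes of both lists were called (82.9%, against 68.1% of all loci), and without this requirement 40 of 47 (85.1%). Fosb had 192, 223 and 136 fragments in WT and 49, 57 and 60 in Yme1l-/- (log2 fold change -2.19 ± 0.20, SE), and Etv4 was at -1.89 ± 0.08 (SE). The AP-1 genes Jun (-1.37 ± 0.07), Fosl1 (-1.36 ± 0.06) and Junb (-0.998 ± 0.20, log2 fold change ± SE) are named because of the motif shown above, after their values were seen. Smaller falls were called for the AP-1 genes Fos (-0.33 ± 0.13) and Fosl2 (-0.27 ± 0.05), and Atf3 was higher (0.45 ± 0.10, log2 fold change ± SE). Jund (-0.61 ± 0.31) and Batf3 (0.24 ± 0.14, log2 fold change ± SE) were not called, and Batf had no fragment. All libraries of Yme1l-/- lay below those of WT for Fosb, Etv4, Jun, Fosl1 and Junb. Whether these factors have a part in the levels of Mmp13, Mmp3, Mmp10 or Adam19 was not tested.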

How the data were processed

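Poly(A)-selected RNA was sequenced from stranded libraries as read pairs, which the authors mapped to mm10 (Ensembl 91) with HISAT2 2.0.4, assembled with StringTie 1.3.3 and compared with Cufflinks (Cuffdiff 2.2.1). The deposited table holds raw fragment counts for 51499 loci, with overlapping genes merged. FPKM values are 1 combined value per genotype computed by the authors. Their fold changes, p-values and q-values were not used.

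Loci with sufficient counts were kept (filterByExpr, minimum 10), leaving 13867. Genotypes were compared in R 4.3.3 with edgeR 4.0.16 by a two-sided quasi-likelihood test after TMM scaling, without covariates. Adjusted p-values are Benjamini-Hochberg values over all tested loci, with calls under 0.05. SEs were obtained by dividing the absolute fold change (log2) by the root of F, and recovery of known changes was tested on simulated data. Depth was 33180867 to 49351107 fragments, and intervals and floors (3 counts) cover counting error only. Coordinates are from GENCODE M21 and promoters from RefSeq, both GRCm38. Amino acid patterns were not analysed here. A symbol on several loci was read from the locus with most fragments.

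Members, lists and tests were chosen with earlier results of these data known. Values in every library were to be given for Timp genes, calls of at least 2-fold with 5 CPM or more, and the 6 members of highest FPKM. Of the partner lists, Reck, Lrp1, Plau and calls with an absolute log2 fold change of at least 1.5 were to be named, and a further gene listed by name in that rule is not reported here. Other genes described in full, and other genes named from these lists, were chosen after their values were seen. Alternatives were RLE or upper-quartile scaling, DESeq2 1.42.0, other filters, a replicate block, leaving out each culture, thinning to 33180867 fragments, and removal of chromosome medians.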

Additional observations from a re-analysis of the deposited data

How the results depend on the processing

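The number of members called lay between 28 and 38 over all fits, and 32 of the 37 calls were kept in every fit that tested them, the exceptions being Mmp17, Adam9, Adamts2, Adamtsl5 and Timp2. Members with at least 2-fold change numbered 13 under the filter of 10 counts in each of the libraries, which tested fewer loci. With chromosome medians removed they numbered 20. Replicate numbers did not pair the cultures (the deviations of same-numbered cultures correlated at 0.144, -0.0939 and 0.048), and a fit blocked on replicate number called 37 members. The median of the members' log2 fold changes was 0.0048 under upper-quartile scaling, which moved the median of all loci to 0.0552, and -0.00053 with chromosome medians removed, and it lay between -0.058 and -0.0033 with a culture left out. Signs of uncalled members turned for Mmp2 (0.0048), the Adam1a locus (0.0547) and Adamts10 (0.0098) under upper-quartile scaling, for Mmp2 (0.26) and Adam4 (0.17) with chromosome medians removed, where Adamts10 became a call (-0.22), for Mmp23 (0.20) and the Adam1a locus (0.029) without WT replicate 1, for Adam4 (0.22) without WT replicate 3, for Mmp23 (0.031) without Yme1l-/- replicate 1, for Adam4 (0.082) and the Adam1a locus (0.016) without Yme1l-/- replicate 2, and for the Adam1a locus (0.032) without Yme1l-/- replicate 3. With a culture left out, Mmp23 ranged from -0.34 to 0.20, the Adam1a locus from -0.059 to 0.032 and Adam4 from -0.92 to 0.22. The cause was not tested. With libraries thinned to the smallest, the genes with few fragments Mmp10 (-2.92), Mmp17 (-1.10) and Mmp25 (1.16) were still called.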
